A study of Mus musculus with 6 samples.

Results

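Class II invariant chain, peptide exchange and endosomal processing genes were examined in hematopoietic stem cells (HSCs) that lacked IRF1. The 10 genes were *Cd74*, the DM chains *H2-DMa*, *H2-DMb1*, and *H2-DMb2*, the DO chains *H2-Oa* and *H2-Ob*, and the enzymes *Ctss*, *Ctsl*, *Lgmn*, and *Ifi30*. They were chosen by symbol for their place in the class II pathway, and all 10 were found among the 26264 genes of the table. Bulk RNA-seq was carried out on HSCs sorted from bone marrow as lineage-negative, Sca1-positive, cKit-positive, CD150-positive, and CD48-negative cells. The *Irf1-/-* mice (B6.129S2-Irf1tm1Mak/J) carried the targeted allele in the whole body, so the cells around the HSCs lacked IRF1 too, and the WT mice were C57Bl/6. All 6 mice were untreated females that were 8 weeks old, with 3 mice and 3 libraries in each genotype. Libraries are named by the replicate numbers 2, 3, and 4 of their labels.

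Class II molecules are assembled in the endoplasmic reticulum around the invariant chain, which fills the peptide groove and carries the molecules to endosomes. There, proteases cut the invariant chain down to a short remnant, DM releases the remnant so that peptides can bind, and DO restrains DM. These genes are best known from B cells, dendritic cells, and macrophages, where the coactivator CIITA drives class II chains, *Cd74*, and DM, and some HSCs also carry class II molecules on their surface.

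Values are normalized counts, that is, the reads of a gene divided by the size factor of its library. Reads on genes were 59658080, 45332573, and 43267486 in WT replicates 2, 3, and 4 and 43138521, 57281017, and 45129929 in *Irf1-/-* replicates 2, 3, and 4. *Irf1* itself had 10122, 11120, and 12057 normalized counts in WT replicates 2, 3, and 4 and 9267, 9524, and 9287 in *Irf1-/-* replicates 2, 3, and 4. The *Irf1-/-* values were below all WT values but close to them (log2 fold change −0.24, SE 0.09, adjusted *P* = 0.17, limma). Counts per gene do not show which exons the reads came from, so they are a weak check of the genotype labels. The comparison was made with limma on log2(normalized count + 1), for the 17404 genes whose normalized counts averaged at least 10. A negative fold change means lower in *Irf1-/-* HSCs, and the added 1 makes changes of low genes look smaller. Calls required both a *P* value under 0.05 after adjustment over all genes tested and a log2 fold change above 0.58 in size.

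All 10 genes passed the filter on low values. In *Irf1-/-* HSCs, 2 of the 10 were called lower (*Cd74* and *H2-DMa*), against 0.954% of all tested genes. None was called higher, against 0.960%, and neither edgeR nor DESeq2 called any of the 10 higher. At an unadjusted *P* under 0.05 in limma, 4 of the 10 were lower and 1 (*Ctsl*) was higher. Of all tested genes, 16.5% had such a *P* in either direction. The libraries of the genotypes did not overlap for 5 of the 10 genes, 4 lower (*Cd74*, *H2-DMa*, *H2-DMb1*, and *Ctss*) and 1 higher (*Ctsl*), where 19.9% of all tested genes did not overlap in either direction. The median log2 fold change of the 10 genes was −0.02, with 5 below 0 and 5 above, beside a median of −0.0028 over all tested genes, of which 50.4% were below 0. The genes did not move as a block, and the account below goes by their roles.

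**Figure D1:**
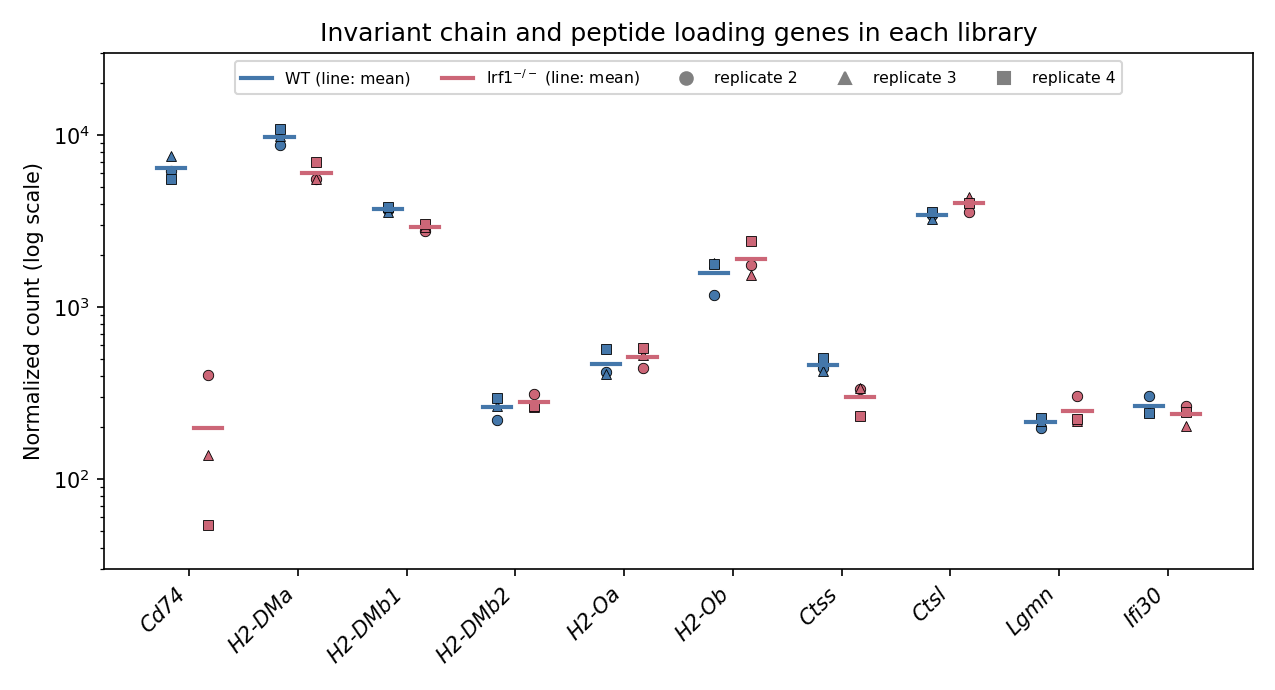
Normalized counts (log axis) of the 10 genes in 3 WT and 3 *Irf1-/-* libraries, with 1 point per library and a line at the mean of each genotype. *Cd74* lies between 5526 and 7584 in WT HSCs and between 54.0 and 403 in *Irf1-/-* HSCs, whereas most other genes differ little or overlap.

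*Cd74* encodes the invariant chain, the chaperone of class II molecules and also a surface receptor for the cytokine MIF. Its normalized counts were 6182, 7584, and 5526 in WT replicates 2, 3, and 4, and 403, 138, and 54.0 in *Irf1-/-* replicates 2, 3, and 4. Every *Irf1-/-* library lay far below every WT library, and the lowest WT value was 13.7 times the highest *Irf1-/-* value. The mean fell from 6431 ± 1051 (SD, *n* = 3) to 198 ± 182, or 3.09% of the WT mean, and the log2 fold change was −5.45 (95% interval −6.46 to −4.45, adjusted *P* = 1.12e-05, limma). It became −6.19 when *Irf1-/-* replicate 2 was left out and −4.75 when replicate 4 was, and *Cd74* was called in each of these fits. A fit without the intensity trend in the prior variance gave the same fold change but an adjusted *P* of 0.0868 in limma. In bulk RNA, fewer cells with the transcript and less transcript per cell cannot be told apart.

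The 3 *Irf1-/-* libraries also differed from each other more for *Cd74* than for the other 9 genes. The highest was 7.46 times the lowest, with an SD of 91.8% of the mean, whereas the highest of the WT libraries was 1.37 times the lowest. Behind the *Irf1-/-* values stood 378, 160, and 52 reads in replicates 2, 3, and 4, against 5137 to 7512 reads in WT libraries, so the transcript remained detectable in all 3. Among the other 9 genes in *Irf1-/-* HSCs, the largest SD was 23.9% of the mean, for *H2-Ob*. The library with the least *Cd74*, *Irf1-/-* replicate 4, held the most *H2-DMa*, *H2-DMb1*, *H2-Oa*, and *H2-Ob* of the 3 and the least *Ctss*.

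The class II chains that the invariant chain binds were set beside it. *H2-Aa*, the alpha chain of I-A, had 2531, 3636, and 2710 normalized counts in WT replicates 2, 3, and 4 and 99.1, 47.5, and 92.4 in the corresponding *Irf1-/-* libraries (log2 fold change −5.25, adjusted *P* = 3.04e-08, limma). *H2-Ab1*, the beta chain of I-A, had 5323, 7442, and 5659 in WT and 1158, 651, and 1218 in *Irf1-/-* HSCs (−2.64, adjusted *P* = 2.85e-06, limma). *H2-Eb1*, the beta chain of I-E, fell with a log2 fold change of −5.11. In *Irf1-/-* HSCs the lowest library was replicate 3 for each of these chains and replicate 4 for *Cd74*.

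Ratios within a library do not depend on its scaling, and 6 pairs of genes were compared by exact permutation (two-sided), which cannot give a *P* below 0.1 for 3 libraries against 3. The log2 ratio of *Cd74* to *H2-Ab1* was 0.22, 0.03, and −0.03 in WT replicates 2, 3, and 4 and −1.52, −2.23, and −4.47 in *Irf1-/-* replicates 2, 3, and 4. The ratio was lower in every *Irf1-/-* library than in any WT library (difference −2.81, exact permutation *P* = 0.1, adjusted over the pairs 0.15). This difference moved to −1.94 when *Irf1-/-* replicate 4 was omitted and to −3.42 when replicate 2 was, with the same sign. The log2 ratio of *Cd74* to *H2-Aa* was 1.29, 1.06, and 1.03 in WT libraries and 2.01, 1.52, and −0.76 in *Irf1-/-* libraries. Here the genotypes overlapped, because *Irf1-/-* replicates 2 and 3 lay above the WT libraries and replicate 4 below them (difference −0.20, exact permutation *P* = 1). Without *Irf1-/-* replicate 4 this difference was 0.64, so its sign rested on that library.

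Likeness to *Cd74* was described by the Pearson correlation of log2 values over the 6 libraries, in which the step between the genotypes is included. The 5 tested genes with the highest *r* were *Hfe* (0.9964), *Insrr* (0.9950), *Psme4* (0.9916), *Pola1* (0.9906), and *Lpin2* (0.9866). Among them, *Hfe* encodes an MHC class I-like protein of iron control, *Pola1* the catalytic subunit of DNA polymerase alpha, and *Psme4* the proteasome activator PA200. *Insrr*, a receptor related to the insulin receptor, was the only one called in the main fit (log2 fold change −1.75, adjusted *P* = 0.000879, limma). *Hfe* (−0.67, adjusted *P* = 0.0715, limma) was called lower by DESeq2 (adjusted *P* = 0.0111) and after quantile normalization (−0.75, adjusted *P* = 0.039, limma). *Insrr* had 779, 845, and 777 normalized counts in WT replicates 2, 3, and 4 and 365, 207, and 176 in *Irf1-/-* replicates 2, 3, and 4. *Psme4* differed little, with *Irf1-/-* libraries at 1493 to 1605 and WT libraries at 1698 to 1739. The *r* of *H2-Eb1* with *Cd74* was 0.96, and that of *H2-Aa* 0.95. Of the other 9 genes, *Ctss* had the highest (0.91), followed by *H2-DMb1* (0.84), *H2-DMa* (0.82), and *Ifi30* (0.50), and *H2-DMb2* (−0.21), *Lgmn* (−0.31), *H2-Oa* and *H2-Ob* (−0.52 each), and *Ctsl* (−0.86) were below 0.

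DM is the heterodimer that catalyzes peptide exchange on class II molecules. *H2-DMa*, its alpha chain, had 8785, 9844, and 10815 normalized counts in WT replicates 2, 3, and 4 and 5573, 5590, and 6976 in *Irf1-/-* replicates 2, 3, and 4. The genotypes did not overlap, and the *Irf1-/-* mean came to 61.6% of the WT mean. *H2-DMa* was called lower (log2 fold change −0.70, 95% interval −0.93 to −0.47, adjusted *P* = 0.00258, limma), also without any 1 of the 6 libraries (−0.81 to −0.63), but not in limma without the intensity trend (adjusted *P* = 0.189).

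*H2-DMb1*, a beta chain of DM, had 3683, 3588, and 3823 normalized counts in WT replicates 2, 3, and 4 and 2765, 2914, and 3061 in *Irf1-/-* replicates 2, 3, and 4. No *Irf1-/-* value reached the lowest WT value, and the *Irf1-/-* mean came to 78.8% of the WT mean. The log2 fold change of −0.34 (95% interval −0.54 to −0.15) did not reach the fold threshold, and the adjusted *P* was 0.0551 (limma; 0.00644 to 0.258 over the alternatives). *H2-DMb2*, the second gene for a beta chain, had 221, 268, and 296 normalized counts in WT libraries and 314, 264, and 266 in *Irf1-/-* libraries. These overlapped, and the interval of the log2 fold change ran from −0.33 to 0.56 around 0.11.

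The difference between the partner chains was itself compared. The log2 ratio of *H2-DMa* to *H2-DMb1* was 1.25, 1.46, and 1.50 in WT replicates 2, 3, and 4 and 1.01, 0.94, and 1.19 in *Irf1-/-* replicates 2, 3, and 4, so that it was lower in every *Irf1-/-* library (difference −0.36, exact permutation *P* = 0.1, adjusted over the pairs 0.15). For *H2-DMb1* to *H2-DMb2* the log2 ratio was 3.69 to 4.06 in WT and 3.13 to 3.52 in *Irf1-/-* libraries (difference −0.46, exact permutation *P* = 0.1). Neither pair overlapped between genotypes, and 3 libraries against 3 allow no smaller *P*.

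Values of the beta chain genes carry an uncertainty, because *H2-DMb1* and *H2-DMb2* are near copies. Their coding sequences, 786 bases each in GENCODE vM1, were identical at 754 positions (95.9%), and 14.3% of all stretches of 100 bases in the *H2-DMb2* transcript occurred unchanged in that of *H2-DMb1*. Reads from such stretches can be dropped or assigned to either gene, so the level of *H2-DMb2* is uncertain. *Ctss* and *Ctsl*, which were compared in the same way, were identical at 55.3% of aligned coding positions and shared no stretch of 100 bases.

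DO binds DM and limits its action. *H2-Oa*, the alpha chain of DO, had 422, 410, and 574 normalized counts in WT replicates 2, 3, and 4 and 443, 524, and 577 in *Irf1-/-* replicates 2, 3, and 4. *H2-Ob*, the beta chain, had 1179, 1804, and 1786 in WT and 1748, 1542, and 2413 in *Irf1-/-* libraries. Both genes overlapped between genotypes. The log2 fold changes were 0.14 for *H2-Oa* (95% interval −0.25 to 0.53, adjusted *P* = 0.783, limma) and 0.26 for *H2-Ob* (−0.13 to 0.64, adjusted *P* = 0.546, limma), and neither interval reaches the fall that *H2-DMa* showed. With 1 library left out, the fold change of *H2-Oa* ranged from 0.06 to 0.30 and that of *H2-Ob* from 0.06 to 0.40. Neither gene was called by limma, edgeR, or DESeq2, and neither had an unadjusted *P* under 0.05 in limma. The log2 ratio of *H2-Oa* to *H2-Ob* ranged from −2.13 to −1.48 in WT and from −2.06 to −1.56 in *Irf1-/-* libraries (difference −0.12, exact permutation *P* = 0.8).

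Among the endosomal enzymes, cathepsin S (*Ctss*) removes the last part of the invariant chain in B cells and dendritic cells, and cathepsin L (*Ctsl*) does so in the cortical epithelium of the thymus. *Ctss* had 443, 424, and 508 normalized counts in WT replicates 2, 3, and 4 and 334, 341, and 233 in *Irf1-/-* replicates 2, 3, and 4. Again no *Irf1-/-* value reached the lowest WT value, and *Irf1-/-* replicate 4 was the lowest. The log2 fold change was −0.61 (95% interval −1.04 to −0.19), but the adjusted *P* was 0.12 in limma, and *Ctss* was not called. Of the alternatives, DESeq2 on recovered reads was the 1 that called it (−0.60, adjusted *P* = 0.0406), with adjusted *P* up to 0.444 in limma when a library was left out.

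*Ctsl* had 3423, 3239, and 3577 normalized counts in WT replicates 2, 3, and 4 and 3588, 4378, and 4057 in *Irf1-/-* replicates 2, 3, and 4. The *Irf1-/-* libraries were all above the WT libraries, by a narrow margin in replicate 2, and the log2 fold change was 0.23 (95% interval 0.02 to 0.44, adjusted *P* = 0.262, limma). *Ctss* thus lay lower and *Ctsl* higher in *Irf1-/-* HSCs. The log2 ratio of *Ctss* to *Ctsl* was −2.95, −2.93, and −2.81 in WT replicates 2, 3, and 4 and −3.42, −3.68, and −4.12 in *Irf1-/-* replicates 2, 3, and 4. It was lower in all 3 *Irf1-/-* libraries, by 0.84 on average (difference −0.84, exact permutation *P* = 0.1, adjusted over the pairs 0.15).

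Legumain (*Lgmn*), an asparaginyl endopeptidase, had 198 to 227 normalized counts in WT and 219 to 305 in *Irf1-/-* libraries. *Ifi30*, which encodes the lysosomal thiol reductase GILT, had 243 to 303 in WT and 205 to 268 in *Irf1-/-* libraries. Both overlapped between genotypes, with log2 fold changes of 0.20 for *Lgmn* (95% interval −0.28 to 0.68) and −0.15 for *Ifi30* (−0.61 to 0.31). These intervals include changes as large as the fold threshold. Omission of single libraries moved the fold change of *Lgmn* between 0.05 and 0.29 and that of *Ifi30* between −0.24 and −0.04.

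**Figure D2:**
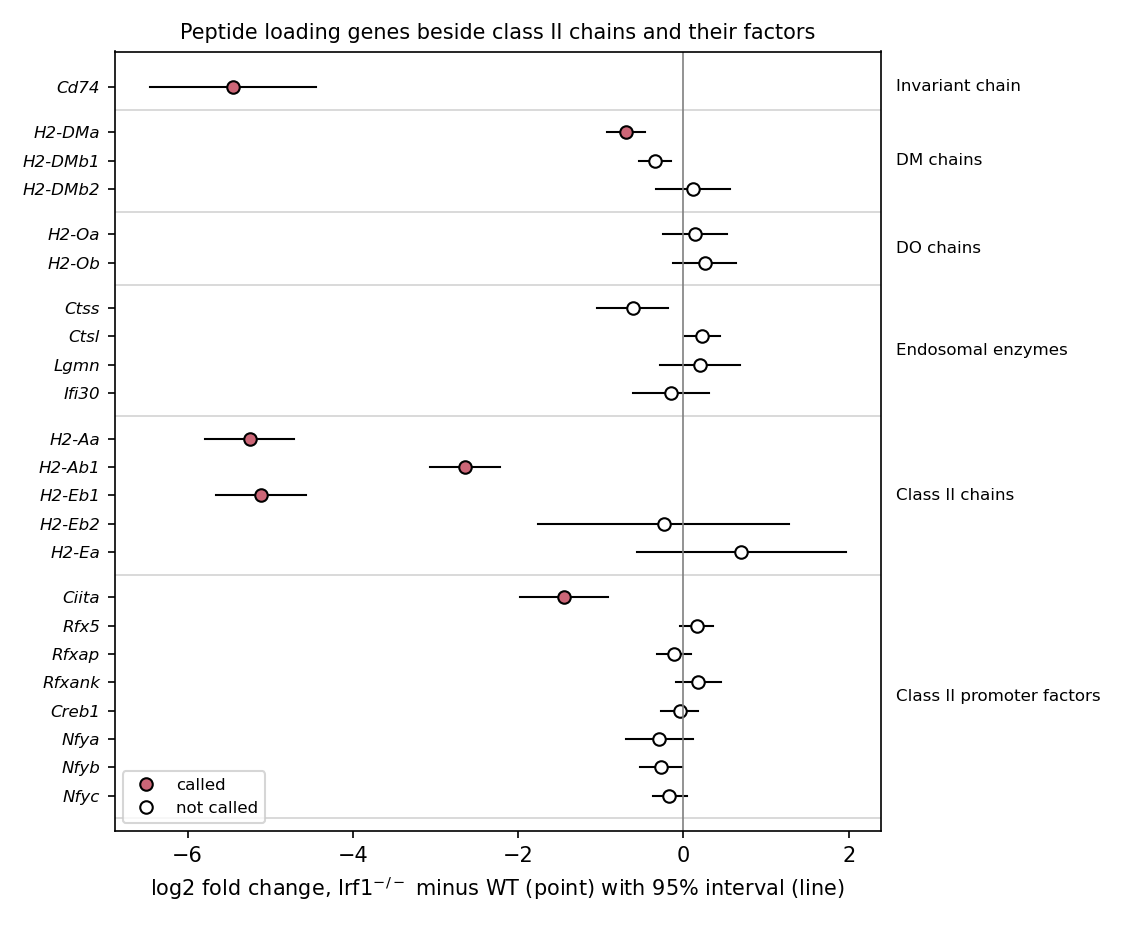
Log2 fold changes (*Irf1-/-* over WT, limma) with 95% intervals for the 10 genes, the class II chains, and the class II promoter factors, where filled points were called. *Cd74* (−5.45), *H2-Aa* (−5.25), and *H2-Eb1* (−5.11) lie apart from *H2-DMa* (−0.70) and from the DO chains (0.14 and 0.26).

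Levels of the 10 genes were set against each other per kilobase of the longest GENCODE vM1 coding transcript. In WT HSCs, *H2-DMa* stood highest with a level of 6312 ± 653 normalized counts per kilobase (SD, *n* = 3), followed by *Cd74* with 4561 ± 746, *H2-DMb1* with 2647 ± 84.7, and *Ctsl* with 1732 ± 85.9. The other 6 genes followed, from *H2-Ob* with 595 ± 133 down to *Lgmn* with 108 ± 7.41. The libraries of neighbours in this order did not overlap, with the exception of *H2-Ob* and *H2-Oa*. In *Irf1-/-* HSCs, *Cd74* moved from rank 2 to rank 9, with a level of 141 ± 129 per kilobase. Its libraries, at 38.3 to 286, overlapped those of *Ifi30* (244 ± 32.4), *Ctss* (223 ± 44.8), *H2-DMb2* (190 ± 19.2), and *Lgmn* (125 ± 24.1), so its place among these 5 genes is not settled. *H2-DMa* remained the highest with 3888 ± 518, and *H2-DMb1* (2086 ± 106) overlapped *Ctsl* (2033 ± 201). Per kilobase, *Irf1-/-* HSCs thus held far more transcript of the DM chains *H2-DMa* and *H2-DMb1* than of the invariant chain.

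Other genes of the pathway were counted by lists. Of the 5 class II chains, 3 were called lower and 0 higher, with a median log2 fold change of −2.64. The 2 that were not called, *H2-Eb2* and *H2-Ea*, were at most at 43.7 normalized counts in any library, and C57BL/6 mice are known to lack a working *H2-Ea*. Among 8 factors that bind or act at class II promoters, 1 was called lower, the coactivator gene *Ciita*, with 393, 611, and 638 normalized counts in WT replicates 2, 3, and 4 and 272, 170, and 163 in *Irf1-/-* replicates 2, 3, and 4 (−1.44, adjusted *P* = 0.0058, limma). The genes of the DNA-bound complex (*Rfx5*, *Rfxap*, *Rfxank*, *Creb1*, *Nfya*, *Nfyb*, and *Nfyc*) had log2 fold changes between −0.30 and 0.18, and the median of the list was −0.14. Of these genes, *Nfyb* alone had an unadjusted *P* under 0.05 in limma.

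Cathepsins outside the 10 genes formed a list of 12, of which 11 were tested (*Ctsk* was not). Of these, 0 were called lower and 1 higher, and the log2 fold changes ran from −0.03 to 0.70 around a median of 0.17. No cathepsin of this list was lower at an unadjusted *P* under 0.05 in limma or called lower by edgeR or DESeq2. The 1 called was *Ctsh*, cathepsin H, an aminopeptidase, with 877, 903, and 850 normalized counts in WT replicates 2, 3, and 4 and 1469, 1436, and 1378 in *Irf1-/-* replicates 2, 3, and 4. All *Irf1-/-* values exceeded all WT values (log2 fold change 0.70, 95% interval 0.46 to 0.95, adjusted *P* = 0.00361, limma). *Ctsf*, which can also process the invariant chain in macrophages, had 4754 to 5368 normalized counts in WT and 6324 to 7661 in *Irf1-/-* libraries. Its adjusted *P* was 0.0118 in limma, but its log2 fold change of 0.51 was under the threshold. The 4 cystatins, inhibitors of cathepsins, had a median of 0.04, and none was called by limma, edgeR, or DESeq2 or had an unadjusted *P* under 0.05. *Cst7*, which encodes cystatin F, lay between 62.4 and 75.5 normalized counts in WT and at 73.6, 12.1, and 35.3 in *Irf1-/-* replicates 2, 3, and 4 (−1.09, adjusted *P* = 0.364, limma). Its fold change moved to −0.43 when *Irf1-/-* replicate 3 was omitted and to −1.68 when replicate 2 was.

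Genes for turnover of class II molecules and clearance of the invariant chain were listed under 6 symbols, of which 4 were in the table (*Sppl2a*, *Marchf1*, *Marchf8*, and *Cd83*). Their median log2 fold change was 0.19. *Sppl2a*, the intramembrane protease that clears the last fragment of the invariant chain, had 4176 to 4774 normalized counts in WT and 4146 to 4556 in *Irf1-/-* libraries. The 5 genes of MIF signaling through CD74 (*Mif*, *Ddt*, *Cd44*, *Cxcr2*, and *Cxcr4*) had log2 fold changes from −0.22 to 0.09. In both lists none was called in either direction by limma, edgeR, or DESeq2, and none had an unadjusted *P* under 0.05 in limma. *Cd74* was thus the 1 gene called among those for the MIF receptor and its ligands.

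*Ifngr1* and *Ifngr2*, which encode the chains of the IFN-γ receptor, were at 10164 to 10574 and 1309 to 1483 in *Irf1-/-* HSCs, against 8173 to 9046 and 957 to 1221 in WT HSCs. Both lay above all WT libraries and had an unadjusted *P* under 0.05 in limma, but neither was called by limma, edgeR, or DESeq2. Of all tested genes, 19.9% did not overlap and 16.5% had such a *P*, in either direction. Among other genes of IFN-γ signaling, *Jak1* (0.17) lay higher and *Socs1* (−0.17) lower without overlap, and *Jak2* (−0.01) overlapped. These were not called in limma.

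The DM and DO genes sit in the class II region of chromosome 17 among genes of the class I pathway. In the gene order of GRCm38.p6, genes of the table follow as *H2-Oa*, *Brd2*, *H2-DMa*, *H2-DMb2*, *H2-DMb1*, *Psmb9*, *Tap1*, *Psmb8*, *Tap2*, *H2-Ob*, *H2-Ab1*, *H2-Aa*, and *H2-Eb1*. Of the 5 genes outside the class II pathway in this stretch, 3 were called lower, namely the immunoproteasome genes *Psmb9* (−0.98) and *Psmb8* (−0.86) and the peptide transporter gene *Tap1* (−0.63). *Tap2* was lower with an adjusted *P* of 0.0457 in limma and a log2 fold change of −0.52, under the threshold, and *Brd2* had 0.20. *Tap2* was called lower without WT replicate 2 (−0.68) and without *Irf1-/-* replicate 4 (−0.62). *Tap1* was no longer called without *Irf1-/-* replicate 3 (−0.58), without WT replicate 3 (−0.55), or after quantile normalization (−0.57). Genes that were not called thus lay between called ones in this stretch, and *H2-Ob*, not called, lay between *Tap2* and *H2-Ab1*. *Cd74* and the genes of the 4 enzymes lie on other chromosomes.

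Promoter sequences are shown for the DM and DO genes, of which *H2-DMa* alone was called, and for *Ctss*, which DESeq2 called. RefSeq promoters of GRCm38.p6, each of 300 bases from 250 before to 50 after the start of a gene, were found for 9 of the 10 genes (11 promoters), without *Cd74*. Both strands were searched for ATTGG (the Y box), GCAACNG (core of the X1 box), GAAANNGAA (paired half-sites of interferon regulatory factors), TTCNNNGAA (gamma-activated site), and CACGTG (E box), where N is any base. Of all 32851 promoters, 37.4% held ATTGG, 12.7% GCAACNG, 8.56% GAAANNGAA, 8.30% TTCNNNGAA, and 7.15% CACGTG. Y box letters were found for 6 of the 9 genes, which were all DM and DO genes and *Lgmn*, and GCAACNG for 0. GAAANNGAA was found for *Ctss* alone, TTCNNNGAA for *H2-DMb2* alone, and CACGTG for *Ctsl*, *Lgmn*, and *Ifi30*. No match overlapped another. *H2-DMa* has 2 promoters in the table, of which 1 held none of these motifs, and the 1 with a match is given. A match describes letters and not a bound site. The search took exact letters, so 0 matches do not show that a promoter lacks an X1 box. *H2-Oa* and *H2-Ob* hold GCAACAA, which differs from GCAACNG in its last base. Capitals mark the matches in these sequences, written 5′ to 3′ on the strand of the gene.
H2-DMa promoter (chr17:34125268-34125567, + strand): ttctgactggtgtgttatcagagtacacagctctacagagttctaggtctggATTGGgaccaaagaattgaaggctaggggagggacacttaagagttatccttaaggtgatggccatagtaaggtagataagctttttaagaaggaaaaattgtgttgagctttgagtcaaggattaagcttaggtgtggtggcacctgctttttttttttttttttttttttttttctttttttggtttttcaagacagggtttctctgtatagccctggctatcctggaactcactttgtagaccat
H2-DMb1 promoter (chr17:34152941-34153240, + strand): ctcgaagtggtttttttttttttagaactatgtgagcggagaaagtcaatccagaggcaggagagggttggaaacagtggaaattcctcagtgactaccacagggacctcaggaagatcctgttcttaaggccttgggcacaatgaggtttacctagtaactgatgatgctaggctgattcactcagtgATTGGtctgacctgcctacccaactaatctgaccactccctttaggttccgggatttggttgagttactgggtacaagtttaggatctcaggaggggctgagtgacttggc
H2-DMb2 promoter (chr17:34144999-34145298, + strand): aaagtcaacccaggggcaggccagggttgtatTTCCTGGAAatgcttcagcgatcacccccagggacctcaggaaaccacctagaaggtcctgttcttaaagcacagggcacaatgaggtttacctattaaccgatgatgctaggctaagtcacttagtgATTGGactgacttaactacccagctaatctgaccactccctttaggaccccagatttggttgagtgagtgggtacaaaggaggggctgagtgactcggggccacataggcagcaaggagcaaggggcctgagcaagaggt
H2-Oa promoter (chr17:34092129-34092428, + strand): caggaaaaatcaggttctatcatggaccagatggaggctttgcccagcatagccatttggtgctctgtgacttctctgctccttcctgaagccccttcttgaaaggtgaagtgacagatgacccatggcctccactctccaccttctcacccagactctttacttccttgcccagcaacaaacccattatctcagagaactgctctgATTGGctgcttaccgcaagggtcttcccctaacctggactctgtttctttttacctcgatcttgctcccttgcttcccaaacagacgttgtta
H2-Ob promoter (chr17:34238655-34238954, + strand): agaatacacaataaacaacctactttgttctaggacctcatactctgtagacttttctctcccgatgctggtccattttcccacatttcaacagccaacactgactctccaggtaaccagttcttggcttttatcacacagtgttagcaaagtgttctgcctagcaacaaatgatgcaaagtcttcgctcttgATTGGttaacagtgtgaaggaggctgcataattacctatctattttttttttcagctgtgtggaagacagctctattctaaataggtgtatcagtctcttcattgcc
Ctss promoter (chr3:95526536-95526835, + strand): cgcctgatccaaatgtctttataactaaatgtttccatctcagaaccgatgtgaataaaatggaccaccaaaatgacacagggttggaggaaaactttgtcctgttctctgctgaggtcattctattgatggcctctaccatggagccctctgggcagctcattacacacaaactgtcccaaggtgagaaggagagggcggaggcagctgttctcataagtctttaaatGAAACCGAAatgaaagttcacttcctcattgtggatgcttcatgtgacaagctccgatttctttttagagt
ATTGG begins 61 bases before the start in *H2-DMb1*, 90 in *H2-DMb2*, 43 in *H2-Oa*, 57 in *H2-Ob*, and 198 in *H2-DMa*. The paired half-sites of *Ctss*, GAAACCGAA, begin 21 bases before its start. The Y box letters, which 37.4% of all promoters held, thus stood in 1 of 2 promoters of *H2-DMa*, which was called lower. They also stood in those of *H2-Oa* and *H2-Ob*, which were not called. In *H2-DMa* they lay farthest from the start, and which of its 2 promoters these HSCs used was not tested.

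Markers of HSCs and of other cells were read in the same libraries. All 10 HSC markers were tested, and their summed level was 225020, 229063, and 207919 normalized counts in WT replicates 2, 3, and 4 and 220884, 244976, and 224439 in *Irf1-/-* replicates 2, 3, and 4, with *Kit* the most abundant. None was at 0 in any library, and 1 of the 10, *Fgd5*, was called higher (0.83, adjusted *P* = 9.13e-05, limma). *Ly6a*, which encodes Sca1, was the 1 that lay lower in all *Irf1-/-* libraries than in any WT library (−0.43, adjusted *P* = 0.0245, limma), and *Procr* (0.52, adjusted *P* = 0.0112, limma), *Mecom* (0.30), and *Slamf1* (0.24) lay higher without overlap, all under the fold threshold. Next come the markers of cells that are known to carry much *Cd74*. Of 7 B cell markers, 6 were tested and none was called by limma. They summed to 2809, 3108, and 2821 in WT replicates 2, 3, and 4 and 3200, 2992, and 3163 in *Irf1-/-* replicates 2, 3, and 4, of which *Cd79b* held most, and the other 6 summed to 119 to 300 in WT and 207 to 249 in *Irf1-/-* libraries. None of the 7 was at 0 in any library.

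The 7 dendritic cell markers summed to 397, 387, and 574 in WT replicates 2, 3, and 4 and 531, 311, and 315 in *Irf1-/-* replicates 2, 3, and 4. *Zbtb46* was the most abundant, and *Itgax* was at 0 in *Irf1-/-* replicate 4. The 7 markers of monocytes or macrophages summed to 23877, 30992, and 26954 in WT and 26707, 32385, and 27577 in *Irf1-/-* libraries, nearly all from *Lyz2*, and without it to 671 to 1855 in WT and 923 to 1159 in *Irf1-/-* libraries, with none at 0. Of 5 T cell markers, 4 were in the table, and 1 (*Cd4*) passed the filter and was tested. *Cd4* was the most abundant, *Cd3e* was at 0 in *Irf1-/-* replicate 3 and *Cd8a* in WT replicates 3 and 4 and *Irf1-/-* replicate 4, and the sums were 128, 265, and 223 in WT and 295, 207, and 349 in *Irf1-/-* libraries. No tested gene of these 3 lists was called by limma, and all of these sums, like those of the B cell markers, overlapped between genotypes.

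Markers listed for progenitors outside the gate stood apart between genotypes in their sum, though of their proteins the gate used CD48 alone. The 4 genes *Cd48*, *Flt3*, *Cd34*, and *Fcgr3* summed to 19728, 18003, and 20132 in WT replicates 2, 3, and 4 and 20514, 26296, and 21345 in *Irf1-/-* replicates 2, 3, and 4, so that the *Irf1-/-* libraries were all higher, with *Cd34* the most abundant and none at 0. *Cd48* (0.11), *Cd34* (0.16), and *Fcgr3* (−0.18) each overlapped between genotypes. *Flt3* was the 1 called (0.67, adjusted *P* = 0.0407, limma), and it was not called when any 1 of WT replicate 3 or *Irf1-/-* replicates 2, 3, and 4 was left out (0.45 to 0.74). Whether a difference in the makeup of the sorted cells had a part in the fall of *Cd74* and *H2-DMa* was not tested.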

How the data were processed

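RNA-seq libraries of sorted HSCs from 3 WT and 3 *Irf1-/-* mice were grouped by their labels. Per the submitters' processing notes and the methods, the authors used Trim Galore for trimming, HISAT2 for alignment to mm39, and Htseq-count for counts per gene. Versions, annotation, and strand setting are not given in the sources used here, so reads of overlapping genes may be shared. The deposited values are a signal, counts scaled in each library by its DESeq2 size factor. Divided by the smallest nonzero value of their library, 100% of values came out whole (within 0.02), so reads were recovered. On these reads edgeR 4.0.16 called 165 genes higher and 162 lower and DESeq2 1.42.0 called 289 and 208, whereas limma 3.58.1 (R 4.3.3) called 167 and 166 on the deposited values. Since scaled values are not counts, limma was the main test. Libraries of 1 genotype differed by more than sampling noise (chi-square per gene 16.2 to 29.9). No molecular identifiers were used, so reads are not independent molecules. The p-values of limma, edgeR, and DESeq2 were adjusted by the Benjamini-Hochberg method over all genes tested. limma, edgeR, and DESeq2 were tested on simulated data before use. Named genes were *Irf1*, the 10 genes, genes of the pathway and marker lists, and the 5 genes most correlated with *Cd74*. The 10 genes and the lists were chosen with earlier results of these data known. A gene of the lists is not reported here. Amino acid sequences were not used here. Alternatives covered the pseudocount (0.5 or 5 in place of 1), the filter (none, or a mean of at least 50), the trend, quantile and TMM scaling, edgeR, DESeq2, blocking on the replicate number, omission of each library, and the adjusted *P* alone.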

Additional observations from a re-analysis of the deposited data

How the results depend on the processing

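In 17 alternatives, *Cd74* and *H2-DMa* kept their direction and were called lower in all but 1. The exception was limma without the intensity trend, which called 7 genes higher and 33 lower over the table, 0 of the 10 genes, and 0 higher and 3 lower on the pathway lists (*Cd74* −5.45, adjusted *P* = 0.0868, and *H2-DMa* −0.70, adjusted *P* = 0.189, limma). It also lost the calls of *H2-Ab1*, *Ciita*, *Ctsh*, *Psmb8*, *Tap1*, *Flt3*, *Fgd5*, and *Insrr*. The cause was not tested. DESeq2 called 289 genes higher and *Ctss* lower (−0.60), and the adjusted *P* alone called 301 genes higher and 260 lower, with 2 higher on the lists (*Ctsf* beside *Ctsh*). With 1 library left out, 83 to 305 genes were called higher and 105 to 265 lower (fewest higher when *Irf1-/-* replicate 4 was omitted, fewest lower when WT replicate 3 was, and most of both when WT replicate 4 was), and genes called higher on the lists from 1 to 2 (2 without *Irf1-/-* replicate 2). *H2-DMb2* ranged from −0.01 (without WT replicate 2) to 0.21, the ratio of *Cd74* to *H2-Aa* from −0.75 to 0.64 (without *Irf1-/-* replicate 4), and that of *H2-Oa* to *H2-Ob* from −0.31 to 0.02 (without WT replicate 2), so that these 3 changed sign. The other 9 genes kept their direction in all 17 alternatives, and the other 4 ratios in the 9 that were run on ratios. Same-numbered libraries deviated together with *r* of −0.094, 0.246, and 0.147 for replicates 2, 3, and 4, and not every library correlated best with its own number. These values come from 3 libraries a genotype and cannot show whether same-numbered libraries were paired. With the replicate block, 219 genes were called higher and 196 lower, 2 of the 10 genes were called lower, *Cd74* −5.45 and *H2-DMa* −0.70, and no call among the 10 genes changed. With 3 libraries a genotype, differences of the genes with low counts (*Lgmn*, *Ifi30*, *H2-DMb2*, *Ctss*, *H2-Oa*) had 95% intervals that reached as far as −1.04 (*Ctss*) and 0.68 (*Lgmn*).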
